A study of Homo sapiens with 2 samples.

Results

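The genes described here are those of cholesterol synthesis and of fatty acid synthesis and lipid storage, which are largely driven by the sterol regulatory element-binding proteins (SREBPs). They were measured in HCT116, an established human colorectal cancer line, with 1 array for each of 2 cultures. The members were taken by gene symbol from a list of 37 genes, 18 for sterols and 19 for fatty acids and lipid storage, and counted only where the platform annotation pairs a probe set with that gene alone. This held for 33 of the 37, among 19775 genes with such a probe set in all. A probe set is the group of short probes that reports 1 transcript region.

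The control culture, labelled HCT116-GFP, is described as wild type, and the compared culture, labelled HCT116-CPEB4, as over-expressing the RNA-binding protein CPEB4 from a lentiviral system. Both were grown in RPMI-1640 with fetal calf serum and antibiotics, and total RNA was labelled with biotin. Whether the GFP cells carry a vector, which promoter drives CPEB4, and whether either line is a clone are not stated in the sources used here. With 1 array a group there is no replicate, so no p-value or standard deviation is given, and a difference in a bulk sample cannot separate fewer cells of a kind from less RNA per cell.

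Cells make cholesterol from acetyl-CoA by way of mevalonate and squalene, and fatty acids by way of malonyl-CoA. When sterols are scarce, SCAP carries the SREBPs from the endoplasmic reticulum to the Golgi, where they are cut, and the released fragment activates these genes; INSIG1 holds the complex back when sterols are plentiful. SREBF2 mainly drives the sterol genes and SREBF1 the fatty acid genes, and the SREBPs act together with NF-Y, which binds CCAAT, and SP1, which binds GC-rich boxes.

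CCAAT was common in the proximal promoters of the sterol members, though not of the fatty acid and lipid storage members. Promoter sequence was not used to choose the members, but the list is of a pathway whose SREBPs act with NF-Y. Promoters from RefSeq (GRCh38.p14) were available for 32 of the 37 genes, and the 250 bases before each annotated start were searched on both strands for CCAAT, for GGGCGG and for the sterol regulatory element as TCACNCCAC. None of these motifs contains another, and they were searched after the array values had been seen. CCAAT was present for 13 of 16 sterol genes, or 81.3%, and for 7 of 16 fatty acid and lipid storage genes, or 43.8%. Among 11041 genes measured on the arrays it was present for 40.9%, and it stood in 32.0% of all 35116 promoters. Genes of the same pathways that are not members had it in 10 of 18 cases for sterols (55.6%) and 22 of 39 for fatty acids (56.4%). The GC box was found for 15 of the 16 sterol genes, 13 of the 16 fatty acid genes and 71.8% of measured genes, against 42.6% of all promoters. Pathway genes that are not members had the GC box in 15 of 18 cases for sterols (83.3%) and 34 of 39 for fatty acids (87.2%). The sterol regulatory element was found for SREBF2 and ACSL1 alone among the members, or 1 of 16 genes in each list (6.25%). It was found for 1.18% of measured genes and in 0.883% of all promoters. Of pathway genes that are not members, 3 of 39 for fatty acids (7.69%) and 0 of 18 for sterols had it. A gene with several annotated starts counted as positive if any of them matched, and a match is a description of letters. The search covered exact letters within 250 bases, so the absence of a match does not show that a gene lacks an element.

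Promoters of 4 genes are shown, with CCAAT (in either orientation) and the sterol regulatory element in capitals, each ending at the base before the annotated start. SREBF2 is shown because both elements were matched, and STARD4 and FDPS as sterol genes with several CCAAT boxes. FADS2 is shown because it had the largest difference, and neither element was matched in the bases searched.
SREBF2, chr22:41832855-41833104, plus strand: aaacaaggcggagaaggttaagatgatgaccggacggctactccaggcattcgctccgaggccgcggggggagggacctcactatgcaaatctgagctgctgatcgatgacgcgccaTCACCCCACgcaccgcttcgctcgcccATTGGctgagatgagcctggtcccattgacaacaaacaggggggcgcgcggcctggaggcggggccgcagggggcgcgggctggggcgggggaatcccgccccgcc
STARD4, chr5:111512536-111512785, minus strand: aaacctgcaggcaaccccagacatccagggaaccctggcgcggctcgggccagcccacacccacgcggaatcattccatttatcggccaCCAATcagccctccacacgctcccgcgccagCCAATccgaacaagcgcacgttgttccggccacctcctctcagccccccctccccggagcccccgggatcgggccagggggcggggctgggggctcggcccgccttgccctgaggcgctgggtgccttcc
FDPS, chr1:155308616-155308865, plus strand: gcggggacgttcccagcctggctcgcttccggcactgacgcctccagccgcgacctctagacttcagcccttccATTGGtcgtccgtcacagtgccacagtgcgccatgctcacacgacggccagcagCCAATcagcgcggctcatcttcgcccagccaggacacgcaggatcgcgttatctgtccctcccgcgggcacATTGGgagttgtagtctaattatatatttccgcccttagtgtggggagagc
FADS2, chr11:61816154-61816403, plus strand: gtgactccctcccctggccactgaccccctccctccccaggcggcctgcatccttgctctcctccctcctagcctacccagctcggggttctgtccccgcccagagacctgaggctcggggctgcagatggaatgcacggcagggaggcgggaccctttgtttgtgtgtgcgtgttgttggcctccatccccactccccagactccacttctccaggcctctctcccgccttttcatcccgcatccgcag
In SREBF2 the sterol regulatory element begins 133 bases and the inverted CCAAT 106 bases before the start. STARD4 has 2 CCAAT boxes and FDPS has 3, between 176 and 51 bases before the start. The other annotated FADS2 start also lacks both elements.

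Each array held 54675 probe sets, with median intensities of 60.6 (HCT116-GFP) and 61.1 (HCT116-CPEB4), and the scaling between arrays gives equal trimmed means of 500.1. A gene was measured if a probe set reached 60.8 units, the median of all values, on at least 1 array (the dim filter), and it is represented by its brightest such probe set. This gave 13704 genes, whose median log2 difference, taken throughout as HCT116-CPEB4 minus HCT116-GFP, was 0.0009. All 4 probe sets of CPEB4 itself read lower on the array labelled HCT116-CPEB4. Those above the dim filter gave −0.44, −0.22 and −0.08. The other (−1.52) read 60.1 and 21.0, under the dim filter on both arrays, and gives no usable ratio. Where those probe sets lie on the transcript is not stated in the sources used here, so every direction below rests on the label. All 10 colon epithelial markers were measured, with EPCAM at 20994 and 20717 and KRT18 at 27353 and 28606 on the GFP and CPEB4-labelled arrays. Only 5 of the 10 (EPCAM, CDH1, KRT8, KRT18 and KRT19) reached 377 units, the 75th percentile of all values, on both arrays. KRT20 read 216 and 163, CDX2 103 and 120, and CEACAM5 66.3 and 84.3, while CDX1 and VIL1 were under the dim filter on the GFP array. None of 5 steroidogenic cell markers passed the dim filter, nor did 3 of 5 hepatocyte and 3 of 5 adipocyte markers. The adipocyte marker CFD was bright, at 3226 and 3347, and the measured adipocyte markers summed to 3336 and 3455. Of 6 markers each, 2 fibroblast markers were measured, with summed intensities of 992 on the GFP array and 1394 on the other, and 2 blood and immune markers, with 304 and 235. The fibroblast sums are mostly COL1A1, at 949 and 1292, whose 4 kept probe sets ran from −3.05 to 0.63. At the probe sets used, fibroblast DCN (43.2 and 102) and immune CSF1R (26.4 and 68.8) passed the dim filter only through the CPEB4-labelled array. Each of them could thus only have come out higher. The ratio of 3′ to 5′ signal for ACTB, which grows as RNA is shortened, was 8.23 for HCT116-GFP and 10.3 for the other array, while that of GAPDH was 0.989 and 1.04, and the part of RNA length in the differences below was not tested.

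At their brightest probe sets the measured sterol and fatty acid members differed by less than 1.5-fold between the arrays, apart from the desaturase FADS2. STARD4 (1.49-fold lower on the CPEB4-labelled array) and SREBF1 (1.44-fold lower) came next. Of the 32 members measured, 1 (FADS2) differed by 2-fold or more, or 3.13%, where 7.40% of all genes measured did so, and no further member reached 1.5-fold, where 16.5% of all genes did. These shares move with the filter: where both arrays had to pass it, the members' 2-fold share was still 3.13% and that of all genes 1.31%. The median difference was −0.03 for the 15 sterol genes, with 9 below 0, and −0.02 for the 17 fatty acid and lipid storage genes, also with 9 below 0. Among all genes 49.9% lay below 0.

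These members are bright genes, and bright genes differ less on these arrays. Of the 32, 30 reached a strict level of 377 units, the 75th percentile of all values, on at least 1 array. Among all 8459 genes at that level 0.627% passed 2-fold and 4.84% passed 1.5-fold, and none of those 30 members passed either. The median size of the difference was 0.17 for the members, 0.17 for genes at the strict level and 0.22 for all genes, all in log2 units without regard to sign.

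**Figure D1:**
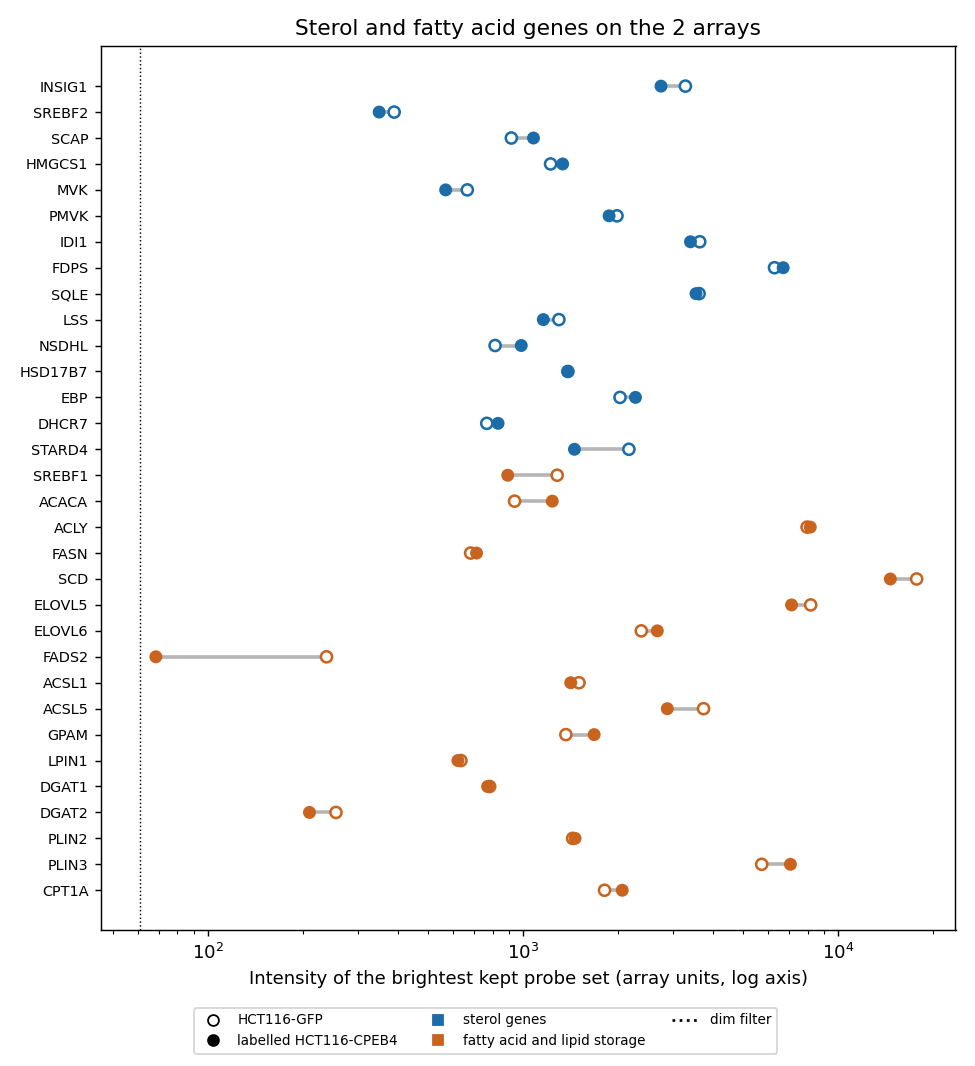
Intensity of the brightest kept probe set of each of 32 genes (log axis, array units) on the HCT116-GFP array (open circles) and the array labelled HCT116-CPEB4 (filled circles), 1 array each, with sterol genes in blue, fatty acid and lipid storage genes in orange and the dim filter of 60.8 units as a dotted line. The pairs nearly coincide for most genes, and FADS2 stands apart at 238 and 68.4. Horizontal positions of different genes are not comparable, since probe sets differ in brightness.

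Among the regulators of the pathway, SREBF2, INSIG1 and SREBF1 read lower and SCAP higher. SREBF2, the sterol-directed SREBP, read 389.9 on the GFP array and 349 on the array labelled HCT116-CPEB4 (−0.16), and its 3 kept probe sets lay between −0.27 and −0.16. INSIG1, the retention protein and itself a target of the SREBPs, read 3274 and 2739.7 (−0.26), with 3 probe sets between −0.45 and −0.26. All probe sets of both genes thus pointed the same way, by less than 1.5-fold.

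SREBF1, the SREBP of fatty acid synthesis, read 1283 and 894 (−0.52), a larger difference than those of the sterol regulators. Its second kept probe set read 171 and 193 (0.18), so the direction of SREBF1 differed between its probe sets, and their mean was −0.17. SCAP, the escort protein, had 1 kept probe set, at 918 and 1079 (0.23).

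The enzymes from acetyl units to farnesyl diphosphate showed small differences in both directions. HMGCS1, which makes HMG-CoA, read 1222 and 1335 (0.13) and gave 0.15 at its other probe set. MVK, mevalonate kinase, read 665 and 568 (−0.23), but its second probe set read 178 and 266 (0.58), so the direction of MVK differed between them. A further probe set (2.61) passed the dim filter only through the CPEB4-labelled array, at 14.2 against 86.9, and so could only have come out higher. PMVK, the next kinase, read 1986 and 1875 (−0.08).

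IDI1, the isomerase that makes dimethylallyl diphosphate, read 3636 and 3398 (−0.10), and its 4 kept probe sets were below 0, down to −0.41. The dimmest of them (−0.13) passed the dim filter only through the GFP array, at 63.9 against 58.4, and so could only have come out lower. The others carry the manufacturer's mark for probes that may also read related sequences. FDPS, farnesyl diphosphate synthase, read 6278 and 6688 (0.09). MVD, the decarboxylase of the pathway, was not measured, since its probe set read 34.4 and 6.33, under the dim filter on both arrays.

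From squalene to cholesterol the differences were again small, with a median of 0.06 over 6 genes. SQLE, squalene epoxidase, a rate-controlling step, read 3619 and 3537 (−0.03), with 4 probe sets between −0.66 and −0.02. LSS, which closes the rings to lanosterol, read 1299 and 1159 (−0.16), with −0.26 and 0.47 at its others. The 2 genes lay near 0 at their bright probe sets, and the −0.66 of SQLE and 0.47 of LSS came from probe sets of at most 159 units.

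NSDHL, a sterol dehydrogenase that removes methyl groups, had the highest difference of the sterol genes, at 815 and 987 (0.28), with −0.05 at its other probe set. EBP, a sterol isomerase, read 2030.5 and 2273 (0.16), with 0.19 at a second bright probe set and 2.21 at another, which read 18.2 and 83.9 and passed the dim filter only through the CPEB4-labelled array. DHCR7, a reductase of the final steps, read 767 and 833 (0.12), and −0.24 at the other. Only EBP of these 3 had all its kept probe sets on the same side of 0.

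HSD17B7, a ketoreductase of sterol synthesis, read 1388 and 1387, a difference within 0.01 of 0, at its only probe set, which carries the manufacturer's mark for probes that may also read related sequences. FDFT1, squalene synthase, and CYP51A1, the lanosterol demethylase, are not reported, since no probe set names either gene alone.

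STARD4, a cytosolic carrier of cholesterol, had the lowest difference of the sterol genes. Its intensities were 2167 in HCT116-GFP and 1456 under the CPEB4 label, −0.57 or 1.49-fold lower, at its only probe set. Of 1891 genes within 0.5 log2 units of its brightness, 3.49% differed by as much in either direction, and the central 90% of those genes ran from −0.45 to 0.45. It was the only sterol gene beyond that range.

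**Figure D2:**
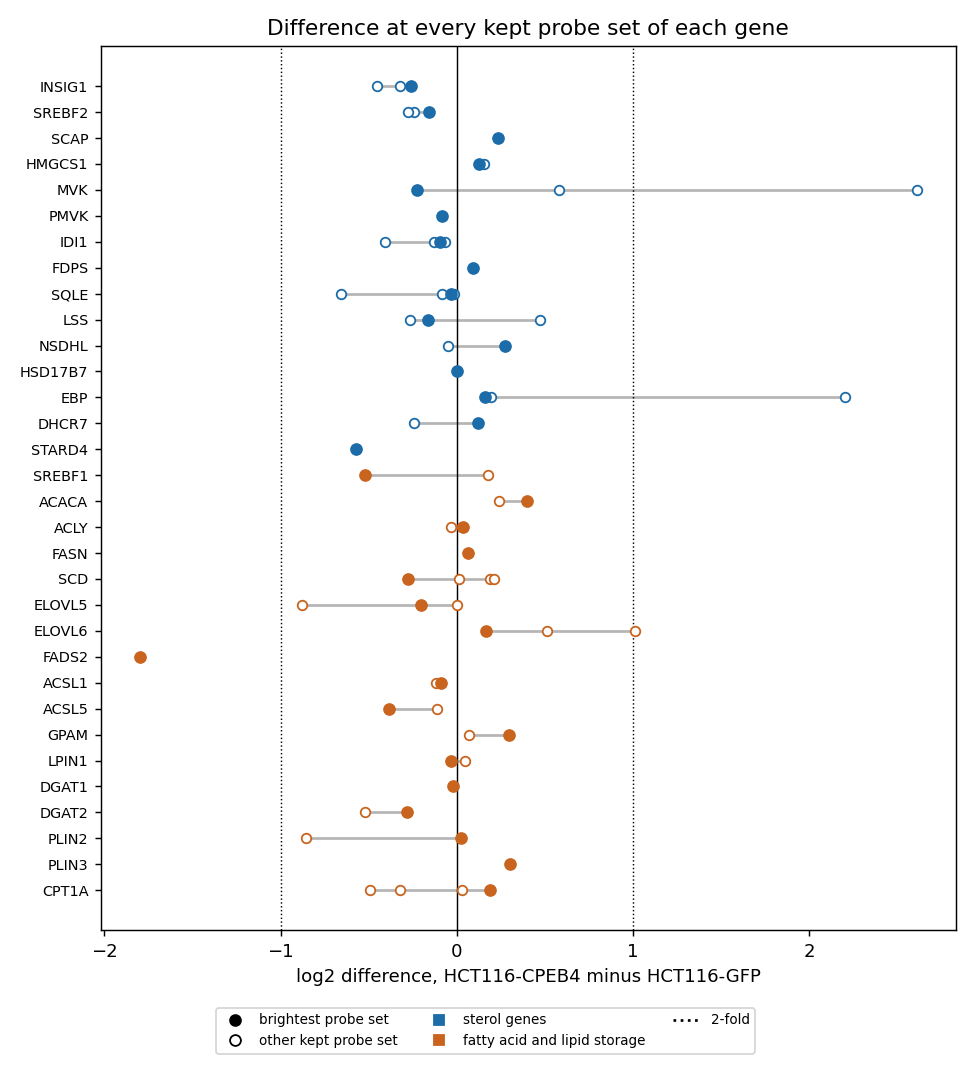
Log2 difference (HCT116-CPEB4 minus HCT116-GFP) at each of the 71 kept probe sets of the 32 genes, with the brightest probe set of each gene filled and the others open. Grey bars span the probe sets of a gene and dotted lines mark 2-fold. Of the genes with several probe sets, INSIG1, SREBF2, IDI1, SQLE, ACSL1, ACSL5 and DGAT2 lie wholly below 0 and HMGCS1, EBP, ACACA, ELOVL6 and GPAM wholly above. The wide spans of MVK and EBP come from probe sets under the dim filter on the GFP array. The dimmest IDI1 probe set was under the filter on the CPEB4-labelled array.

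Probe sets of the same gene often disagreed, and since their positions are not known here, such gaps may hold differences between transcripts as well as noise. Of the 23 members with several kept probe sets, 12 had all of them on the same side of 0, or 52.2%, against 45.5% of the 6520 such genes in all. Both counts include probe sets above the dim filter on only 1 array, whose sign was fixed by that, as for IDI1 and EBP among the 12. The gap between the differences of the 2 brightest probe sets had a median of 0.09 for sterol genes, 0.24 for fatty acid and lipid storage genes and 0.27 for all genes. Of the 32 members, 22 differed between the arrays by less than that last gap and 10 by more.

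The enzymes that build fatty acids lay above 0 at their brightest probe sets, all by less than 1.5-fold. ACLY, which makes cytosolic acetyl-CoA from citrate, read 7966 and 8154 (0.03), and its 3 probe sets lay between −0.03 and 0.03. ACACA, the carboxylase that makes malonyl-CoA and commits carbon to fatty acids, read 939.7 and 1238 (0.40), with 0.24 at its second probe set, the highest difference of all members. FASN, fatty acid synthase, read 682 and 712 (0.06).

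The desaturases and elongases went both ways. SCD, which makes oleate from stearate, read 17738 and 14636 (−0.28) at its brightest probe set, whereas its 3 other probe sets lay between 0.01 and 0.21. The mean over the SCD probe sets was 0.03, so its direction is not settled. ELOVL5, an elongase of polyunsaturated fatty acids, read 8178 and 7109.8 (−0.20), with 0.00 and −0.88 at its other probe sets. ELOVL6, an elongase of saturated fatty acids, read 2372 and 2666 (0.17), with 0.51 and 1.01 at its other probe sets, all above 0.

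FADS2, the desaturase that starts the synthesis of long polyunsaturated fatty acids, was the member with the largest difference. Its intensities were 238 in HCT116-GFP and 68.4 under the CPEB4 label, −1.80 or 3.48-fold lower, where 3.85% of all genes measured were lower and 3.55% higher by 2-fold or more. The second value lies just above the dim filter of 60.8. Of 1559 genes within 0.5 log2 units of its brightness, 6.74% passed 2-fold in either direction, and 0.834% differed by as much as FADS2.

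The FADS2 value rests on 1 probe set. Its only other probe set read 3.26 and 2.47, under the dim filter, and gives no usable ratio. The probe set used carries the mark for probes that match several transcripts, so leaving out marked probe sets leaves FADS2 without a value, as does the strict level. FADS1, the neighbouring desaturase that acts later in the same route, is not reported because no probe set names it alone. FADS3, a related gene that is not a member and was looked up after the FADS2 value was seen, read 809 and 696 (−0.22), and −0.49 at a second probe set.

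**Figure D3:**
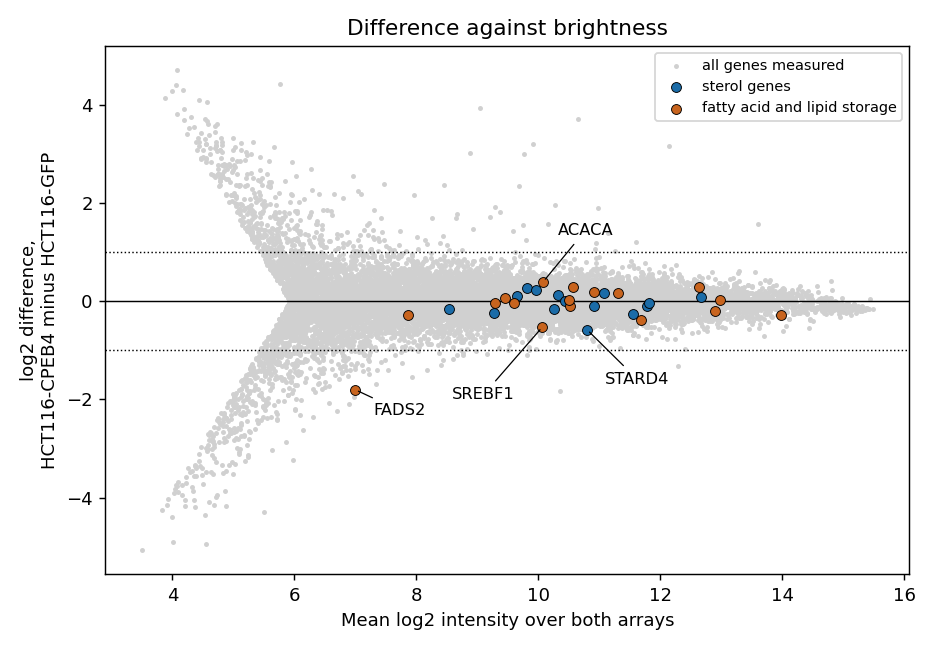
Log2 difference (HCT116-CPEB4 minus HCT116-GFP) against mean log2 intensity for 13704 genes (grey), with 15 sterol genes in blue and 17 fatty acid and lipid storage genes in orange and dotted lines at 2-fold. The grey cloud widens towards dim genes. The members lie inside it apart from FADS2 at −1.80 on its lower edge, and STARD4 (−0.57) and SREBF1 (−0.52) lie towards its lower side among bright genes.

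Compared with genes within 0.5 log2 units of their own brightness, 3 of the 32 members lay outside the central 90%: FADS2, STARD4 and SREBF1, all lower on the CPEB4-labelled array. By construction 10% of all genes lie outside such a range, so 3 of 32 is close to the usual share. For SREBF1 the range was −0.47 to 0.47.

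The acyl-CoA synthetases activate fatty acids, and the measured members ACSL5 and ACSL1 read lower at all their kept probe sets. ACSL5, an intestinal form, read 3738 and 2869 (−0.38), with −0.11 at its second probe set. ACSL1 read 1505 and 1416 (−0.09), with −0.12 at its second. ACSL3 is not reported, as no probe set names it alone.

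Of the genes that build glycerolipids, GPAM, which adds the first acyl group to glycerol phosphate, read 1367 and 1681 (0.30), with 0.07 at its second probe set. LPIN1, a phosphatidate phosphatase, read 635 and 621 (−0.03), with 0.05 at its second. The final acyltransferases of triglyceride synthesis were DGAT1, at 783 and 772 (−0.02), and DGAT2, at 255 and 210.0 (−0.28) with −0.52 at its second probe set. Neither DGAT2 nor FADS2 reached the strict level on either array.

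The lipid droplet coat protein PLIN3 read 5717 and 7052 (0.30) at its only probe set. PLIN2, another coat protein that is stabilised by stored lipid, read 1436 and 1462 (0.03), although a dimmer probe set read 174 and 96.2 (−0.86). CPT1A, which admits fatty acids into mitochondria for oxidation, read 1813 and 2064 (0.19), while its 3 other probe sets, of at most 277 units, ran from −0.49 to 0.03. Droplet and import genes thus had no difference above 1.5-fold at a bright probe set.

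Of the 2 groups of members, the sterol genes were the more even. Between their quartiles the differences ran from −0.16 to 0.12, and those of the fatty acid and lipid storage genes from −0.28 to 0.17, against −0.17 to 0.17 for all genes at the strict level. The median size was 0.16 for sterol genes and 0.20 for fatty acid and lipid storage genes, and the difference between these groups was not tested. All 15 sterol genes reached the strict level, as did 15 of the 17 others. Among genes of the same pathways that are not members, the median size was 0.19 for sterol and 0.11 for fatty acid genes.

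**Figure D4:**
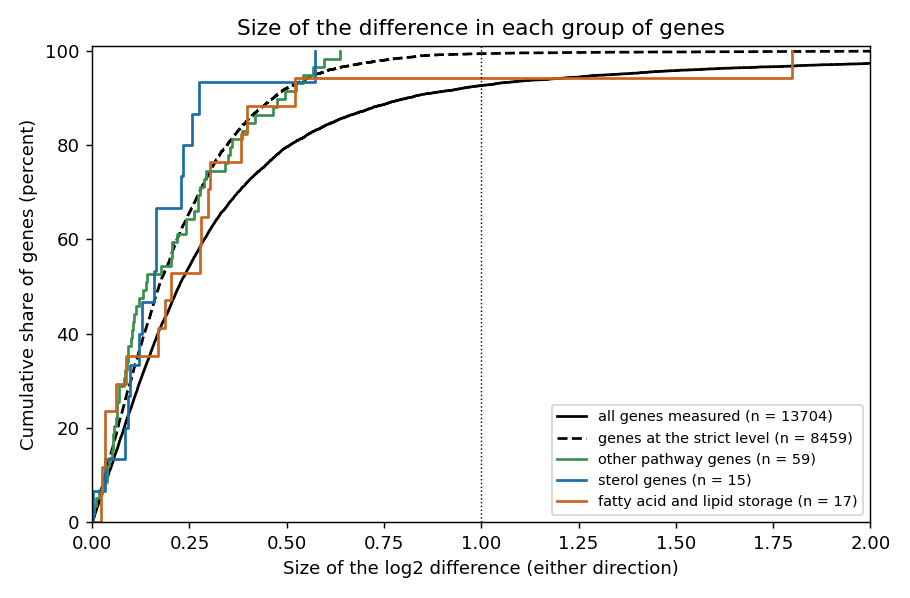
Cumulative share of genes (percent) against the size of the log2 difference in either direction, for 15 sterol genes, 17 fatty acid and lipid storage genes, 59 other genes of these pathways, 8459 genes at the strict level and all 13704 genes; the axis ends at 2 and the dotted line marks 2-fold. The member curves lie near that of bright genes, and the last step of the orange curve is FADS2.

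Differences of members with and without CCAAT in the promoter are given as a description. The 12 measured sterol genes with the motif had a median of −0.05 and the 2 without it 0.07, and among fatty acid and lipid storage genes the 6 with it had −0.03 and the 8 without it −0.003.

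Other genes of the same pathways were taken from a list of 75, of which 59 were measured. They gave no difference of 2-fold, where 7.40% of all genes did, and 2 passed 1.5-fold, or 3.39% beside the 16.5% of all genes. Of the 59, 49 reached the strict level. Among all genes at that level 0.627% passed 2-fold and 4.84% passed 1.5-fold, so the shares of the 59 are near those of bright genes. The counts of other pathway genes depend on the probe sets used. With the mean over probe sets 2 of 22 other sterol genes passed 2-fold and 4 passed 1.5-fold. Without marked probe sets 1 and 3 of 18 did. Of the other fatty acid genes 2 of 28 passed 2-fold without marked probe sets. With no dim filter 2 of 43 passed 2-fold and 5 passed 1.5-fold. Of all genes 8.89% passed 2-fold and 18.8% passed 1.5-fold with the mean, and 8.79% and 19.2% without marked probe sets. With no dim filter 18.4% and 30.2% of all genes did. The 22 other sterol genes had a median of 0.04, with 9 below 0, which was −0.14 without marked probe sets, and the 37 other fatty acid genes a median of −0.03, with 20 below 0. Farthest from 0 among the sterol genes were STARD3, a late endosomal cholesterol protein, at 268 and 172 (−0.64), MBTPS1, the first protease that cuts the SREBPs, at 1702 and 1168 (−0.54), and NPC1, which exports cholesterol from lysosomes, at 2006 and 1395 (−0.52). MBTPS1 read −1.19 at its second probe set, whereas NPC1 read 1.27 at its second, so the direction of NPC1 is not settled.

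Among the other fatty acid genes the farthest were ACSL6, a dim synthetase at 82.1 and 124 (0.60), CPT2, the inner-membrane partner of CPT1A, at 1377 and 2043 (0.57), and GPAT3, a glycerol phosphate acyltransferase, at 2021 and 1432 (−0.50). CPT2 read 0.05 at its second probe set, and ACSL6 2.12 at its second, dimmer one. ACSL6, CPT2 and the regulator PPARD exceeded the highest member, ACACA at 0.40. PPARD read 2243 and 3097 (0.47), and its 4 kept probe sets ran from −0.55 to 0.47.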

How the data were processed

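Total RNA of 2 HCT116 cultures was measured on 3′ expression arrays, 1 array for each. The authors' deposited table holds linear intensity values per probe set. Per the submitters' processing notes Partek was used, in a role they do not state; summarisation, background correction and scaling were not given in the sources used here. Equal means after trimming 2% at each end show a common overall level, which leaves brightness-dependent differences in place.

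Probe sets were named by platform annotation, updated by Entrez identifier to RefSeq (GRCh38.p14). Of 54675, 41097 have 1 gene (41043 matched), 1801 several and 11777 none, and 0 sample columns were unused. No pseudocount was used. The dim filter, strict level and brightest probe set are defined in the text; 2-fold and 1.5-fold are rules of size, and no test was run. All members are named, and of other pathway genes those past 2-fold or else the 3 farthest from 0 in each list. FADS3, PPARD and the markers are additional. The members and lists were chosen with earlier results of these data known. Alternatives were the filter, the probe set rule, the scaling and 16 added units. The procedure was tested on simulated data with large planted changes and the same noise at every brightness. Differences on these arrays widen towards dim genes, so that test does not show how the fold rules behave here. Python 3.11.15, pandas 2.3.3 and statsmodels 0.14.6 were used. The number of arrays limits precision, and depth has no meaning here.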

Additional observations from a re-analysis of the deposited data

How the results depend on the processing

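Each value was recomputed under 9 alternatives. A list median was taken as moved at 0.1 log2 units, a gene at the median gap between probe sets (0.27), and a count at 1.5 times. The medians of both member lists moved by less than 0.1 in all 9, and that of the fatty acid and lipid storage genes was 0.03 at the 75th percentile filter, 0.03 without marked probe sets and 0.002 without FADS2 (an omission chosen after seeing the data), so its sign is not settled. The median of the other sterol genes was −0.14 without marked probe sets.

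The count of members past 2-fold was 0 at the 75th percentile filter, 0 without marked probe sets, 0 without FADS2 and 2 with no dim filter (MVD, at −2.44, was added). The count past 1.5-fold was 0, 0, 0 and 2 in the same order, and 3 with the mean over probe sets. That mean added EBP at 0.85 and MVK at 0.99, each raised by a probe set kept only through the CPEB4-labelled array. Their brightest probe sets read 0.16 and −0.23. With no dim filter 6.06% of members passed either fold, against 18.4% of all genes at 2-fold and 30.2% at 1.5-fold. With the mean, 9.38% of members and 18.8% of all genes passed 1.5-fold. Without marked probe sets 8.79% of all genes passed 2-fold and 19.2% passed 1.5-fold. At the 75th percentile filter 0.638% and 4.86% of all genes did. Fatty acid and lipid storage genes below 0 numbered 4, of 9 measured, without marked probe sets. Over all genes 54 passed 2-fold and 411 passed 1.5-fold at the 75th percentile filter, 3636 and 5964 with no filter, and 159 and 1024 with both arrays above the filter, where the share past 2-fold was 1.31% of all genes and 3.13% of members, the other way round from the main filter. Of the 32 members, 24 kept their sign under every alternative that measured them. No paired analysis was possible because each group has 1 array, and for the same reason no replicate could be left out.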
